A study of Mus musculus with 162 samples.

Results

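Cells of the medial ganglionic eminence (MGE) lineage that held RNA of Sst, the somatostatin gene, were set against MGE-derived cells that did not. The series holds 162 single cells of the mouse embryo, aged E17.5-E18.5, of which 42 passed the quality control of the submitters and were labelled MGE-derived 1 or MGE-derived 2. The Sst-positive group held the 29 cells with 10 or more counts of Sst and the Sst-negative group the 13 cells with fewer. Cells were selected on the Sst count itself, so Sst is given as a description and nothing rests on it. Each cell is the cytosol drawn into 1 patch-clamp pipette, and its RNA was sequenced by a standard Illumina protocol. The Sst-positive cells were 17 of the Htr3a Cre line and 12 of the Lhx6 Cre line, against 11 and 2 among the Sst-negative cells. The lines are named for a serotonin receptor gene of interneurons (Htr3a) and for a transcription factor gene of MGE-derived interneurons (Lhx6). The labels do not spell out MGE, and how the submitters assigned the type labels is not given in the sources used here. By label, 11 of 18 MGE-derived 1 cells and 18 of 24 MGE-derived 2 cells were Sst-positive. Strain, sex and treatment are not given in the labels, and since the embryo or litter of a cell is not given either, each group is treated as 1 sample. No p-value or standard error was therefore computed, and the SD given is the spread between cells.

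Somatostatin is a peptide made from a precursor that is cut by proprotein convertases, packed into dense core vesicles and released to act on G-protein-coupled receptors. In the cortex its gene marks a major class of GABA-releasing interneurons. These are born in the MGE, migrate tangentially into the cortex before birth and need Lhx6 and, downstream of it, Sox6 and Satb1 to mature. The other large MGE class, the parvalbumin interneurons, switches its marker on only after birth, so that before birth the 2 classes have to be told apart by other genes.

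The Sst promoter is the textbook target of the transcription factor CREB, which binds the cAMP response element, spelled TGACGTCA and the same on both strands. It is printed because Sst defines the groups, together with the promoters of 3 genes of the dense core vesicle pathway that hold the same letters: Pcsk1, a convertase, and Scg2 and Chgb, which encode granins that fill the vesicle. Each is the stretch of 80 bases before the gene's start in RefSeq (build GRCm38.p6), given 5' to 3' on the gene's strand, with the element in capitals.
Sst: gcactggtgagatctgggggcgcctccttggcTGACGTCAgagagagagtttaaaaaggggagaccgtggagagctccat
Pcsk1: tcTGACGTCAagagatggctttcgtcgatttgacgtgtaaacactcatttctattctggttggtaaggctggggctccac
Scg2: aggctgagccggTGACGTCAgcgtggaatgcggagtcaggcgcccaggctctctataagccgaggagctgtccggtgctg
Chgb: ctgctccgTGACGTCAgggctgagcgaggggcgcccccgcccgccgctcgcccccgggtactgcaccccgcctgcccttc
The Sst stretch lies at chr16:23890845-23890924 on the minus strand, with the element 48 to 41 bases before the start. The others lie at chr13:75089777-75089856 (Pcsk1, plus strand), chr1:79440027-79440106 (Scg2, minus strand) and chr2:132781562-132781641 (Chgb, plus strand). The element stands in the 250 bases before the start of 508 of 32851 genes of the table (1.55%), and a match is a description of the letters only.

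Sst RNA was either abundant or near absent. The Sst-positive cells held 1256 to 38247 counts of Sst (median 7308), or 92.7 to 6380 CPM, the counts scaled to a fixed total per cell (median 1022 CPM). The Sst-negative cells held 0 to 8 counts, with 10 of 13 at 0 and a highest level of 1.26 CPM. The cell just inside the threshold held 1256 counts and the cell just outside 8 counts, so that thresholds of 100 counts or 10 CPM gave the same groups, and a threshold of 1 count moved 3 cells. Among the 106 passed cells with other labels, 20 held 10 or more counts, and the highest level was 233 CPM in an Undefined cell. All 12 Cajal Retzius cells held at least 1 count of Sst, with 721 counts at most.

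**Figure D1:**
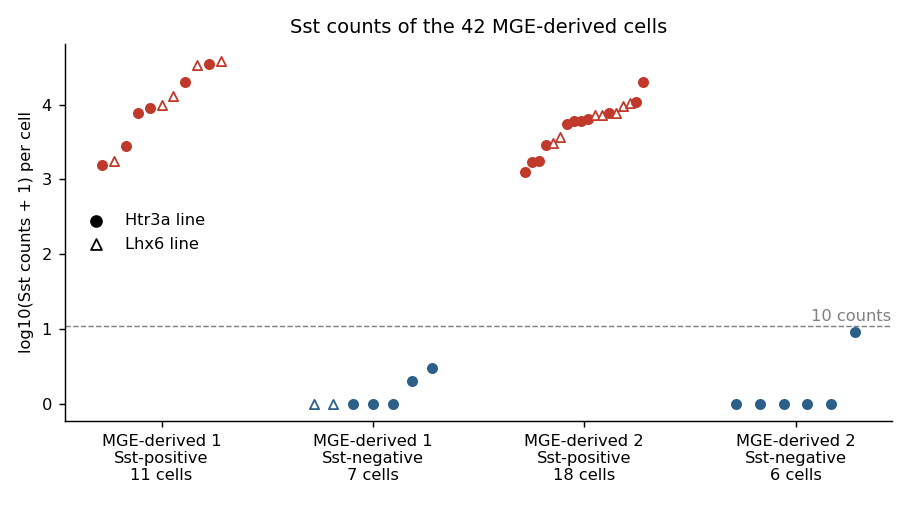
Sst counts of each of the 42 cells (log10 of counts + 1, vertical axis) by label and group, circles for the Htr3a line and triangles for the Lhx6 line; the dashed line marks 10 counts. The 29 Sst-positive cells lie at 1256 counts or more and the 13 Sst-negative cells at 8 or fewer.

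Lhx6 had a count in 29 of 29 Sst-positive and 13 of 13 Sst-negative cells, and Gad1, which encodes a GABA-synthesizing enzyme, in 27 of 29 and 13 of 13. By level of Lhx6, the Sst-negative cells met the label less evenly. Of these, 5 held only 9.36 to 41.1 CPM of Lhx6, against a lowest level of 27.7 CPM in Sst-positive cells. Gad1 stood at 0.680 and 0.902 CPM in 2 Sst-negative cells, and its lowest level in Sst-positive cells was 0. These 2 Sst-negative cells held 1342 and 45.3 CPM of Gad2, which encodes another GABA-synthesizing enzyme. Among Sst-negative cells, Htr3a, Adarb2 and Id2, genes known for the caudal ganglionic eminence, were highest in MGE-derived 1 cell 8. Single Sst-negative cells are described at the end. Total counts ran from 1710224 to 19310050 per Sst-positive cell (median 7655725) and from 4415109 to 16920377 per Sst-negative cell (median 8897210). No pair of cells had identical counts.

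Some cells stood apart and are named before the results. At least 3 of 12 microglia markers reached 10 counts in 2 of 29 Sst-positive cells (MGE-derived 2 cells 9 and 20) and 5 of 13 Sst-negative cells (MGE-derived 1 cell 14 and MGE-derived 2 cells 16, 17, 18 and 23). The summed level of these markers was 0 to 20050 CPM in Sst-positive cells (median 0.426) and 0 to 19300 CPM in Sst-negative cells (median 113). All 12 markers, among them C1qb of the complement system and the receptor gene Csf1r, were detected in each group. Without the 7 cells the sums were 0 to 561 CPM in 27 Sst-positive cells, with 2 markers at 0 throughout, and 0 to 389 CPM in 8 Sst-negative cells, with 8 markers at 0 throughout. The cells with microglial RNA also held more genes, 8022 and 9510 in the Sst-positive cells and 6494 to 14810 in the Sst-negative cells. The remaining cells held 2900 to 7913 genes (median 4741) when Sst-positive and 2707 to 5717 (median 3882.5) when Sst-negative. The counts over all genes, the ranges over the named genes and the gene lists below are given with and without these 7 cells, and so is a gene whose call changed without them. Their part in the differences was not tested beyond that. The summed level of Slc17a6, Slc17a7, Neurod1, Neurod2, Neurod6 and Tbr1, markers of glutamatergic neurons, was 0 to 2492 CPM in Sst-positive cells (median 0.242). It was highest in MGE-derived 2 cell 7, and 0 to 435 CPM in Sst-negative cells (median 0). For progenitor and proliferation markers the sums were 0 to 2678 CPM (median 74.3), highest in MGE-derived 2 cell 24, and 0 to 1480 CPM (median 214). Cells were not left out for these markers.

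**Figure D2:**
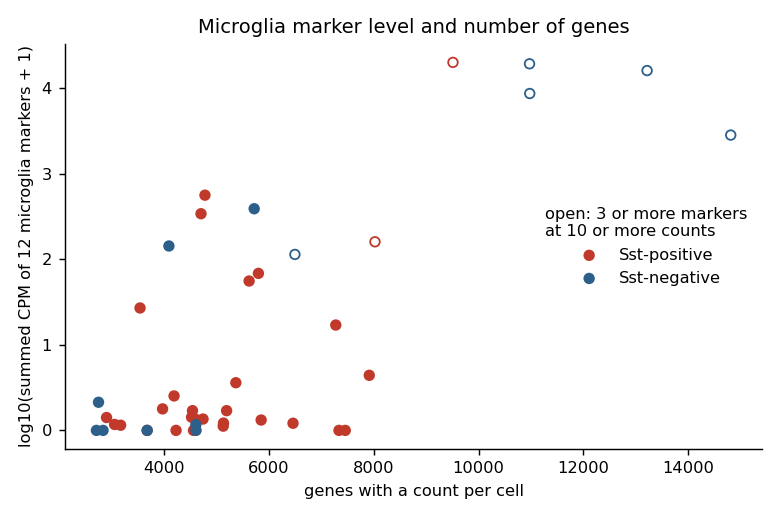
Summed CPM of 12 microglia markers (log10 of CPM + 1, vertical axis) against the number of genes with a count (horizontal axis) for each of the 42 cells, red Sst-positive and blue Sst-negative; open points hold at least 3 markers at 10 or more counts. The 5 open Sst-negative cells hold 6494 to 14810 genes, and the 2 open Sst-positive cells 8022 and 9510.

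Apart from Sst itself, 14903 genes had a count in 10% or more of the Sst-positive or of the Sst-negative cells. The value compared was the mean over cells of log2(CPM + 1) in Sst-positive minus that in Sst-negative cells. A gene is called higher or lower where this log2 difference is at least 1 in size. It is smaller than the log2 fold for genes of low level. Where many cells of 1 group hold no count, it can far exceed the difference by summed counts. For Npas1, described below, it was 6.68 beside a 3.80-fold difference by summed counts. By this, 1390 genes (9.33%) were higher and 2476 (16.6%) lower in Sst-positive cells, with a median of -0.22 over all genes. Without the cells with microglial RNA the balance turned, and 3580 of 12234 genes (29.3%) were higher and 912 (7.45%) lower, with a median of 0.41. With those cells left out and 8 Sst-positive cells matched to the 8 Sst-negative cells on the number of genes, 2659 of 12496 (21.3%) were higher and 2231 (17.9%) lower, with a median of 0.02. The overall counts thus differed with the choice of cells. Most of these differences were small beside the spread: the larger of both groups' SDs between cells had a median of 2.80 over genes, and 29 genes (0.195%) were higher and 5 (0.0336%) lower by more than their own larger SD. The 5 were Srp68, Trappc2l and Dcaf10, described further on, and Dpp8 (-3.20) and Mrpl34 (-3.01). The naming rule, which asked for a count in 50% of cells, 20 CPM and 2-fold by summed counts in the higher group and the same sign within the Htr3a line, was met by 552 genes higher (3.7%) and 205 lower (1.38%). The 12 of these with the largest log2 difference in each direction are named, of which 11 higher and 12 lower are reported here.

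Among the 11 reported genes higher in Sst-positive cells were genes of transcription factors, glutamate receptor proteins and cell surface or secreted proteins. All 11 exceeded their larger SD. They were counted jointly in each cell at a level of at least 20 CPM: Sst-positive cells held 3 to 11 of them (median 9) and Sst-negative cells 0 to 3 (median 2). The groups met only at 3 in this count, which is over genes chosen for their difference. The CGE-derived cells, labelled for the caudal ganglionic eminence, held 2 to 7 (median 4, 11 cells), and the Glutamatergic 1 and 2 cells 0 to 6 (median 2.5, 46 cells).

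Among the transcription factor genes, Tshz3, a zinc finger gene of the teashirt family (chr7:36698118-36773553, GRCm38, plus strand), differed most. It had 0 to 3050 CPM in Sst-positive cells (median 525) and 0 to 32.2 CPM in Sst-negative cells (median 0). It was counted in 27 of 29 Sst-positive cells (exact 95% interval 77.2 to 99.2%) and 4 of 13 Sst-negative cells (9.09 to 61.4%), and 24 Sst-positive cells lay above every Sst-negative cell. These intervals cover the counting of cells only and are no test between the groups. The log2 difference was 7.03 with SDs of 3.26 and 1.75, and the summed counts came to 627 and 4.48 CPM, a 140-fold difference.

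Npas1, a helix-loop-helix factor gene of GABAergic neurons, had 0 to 1507 CPM in Sst-positive cells (median 504) and 0 to 1617 CPM in Sst-negative cells (median 0), a log2 difference of 6.68. A single Sst-negative cell, MGE-derived 1 cell 8, reached the Sst-positive levels at 1617 CPM, and the other 12 held 2.04 CPM at most. By summed counts the levels were 493.3 and 130 CPM. Satb1, a chromatin organizer that mouse Sst interneurons need to mature, had 0 to 3716 CPM in Sst-positive cells (median 962) and 0 to 260 CPM in Sst-negative cells (median 28.02). Here 25 of 29 Sst-positive cells exceeded all Sst-negative cells, and the log2 difference was 4.90.

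The receptor genes were led by Grin3a, which encodes an NMDA receptor subunit (chr4:49661611-49845744, minus strand). It had 0 to 1695 CPM in Sst-positive cells (median 312) and 0 to 4.09 CPM in Sst-negative cells (median 0). It was counted in 23 of 29 Sst-positive cells (exact 95% interval 60.3 to 92.0%) and 3 of 13 Sst-negative cells (5.04 to 53.8%), all 3 among the cells with microglial RNA. The log2 difference was 6.03, and 6.49 without the cells with microglial RNA, where none of 8 Sst-negative cells held a count. Grik1, a kainate receptor subunit gene, had a median of 289 CPM in Sst-positive cells and 0 in Sst-negative cells (highest 1320 and 94.2 CPM), with a log2 difference of 5.78.

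Neto1, whose protein is an auxiliary subunit of kainate receptors, was counted in 26 of 29 Sst-positive cells (highest 1028 CPM) and 4 of 13 Sst-negative cells (highest 26.1 CPM), a log2 difference of 5.22. The genes of these receptor proteins were at or near 0 in most Sst-negative cells and at high but scattered levels in Sst-positive cells.

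Of the surface and secreted proteins, Reln, the secreted glycoprotein that guides the placing of migrating neurons, was counted in all 29 Sst-positive cells at 0.138 to 2970 CPM (median 767). In Sst-negative cells it was counted in 9 of 13 at up to 808 CPM (median 2.48), and the log2 difference was 5.64. Chl1, a cell adhesion molecule of the immunoglobulin family, was also counted in all 29 Sst-positive cells, at 5.10 to 2785 CPM (median 825), and in 8 of 13 Sst-negative cells at up to 2856 CPM (median 9.82). Its ranges overlapped fully at the upper end, and its log2 difference was 5.09. By summed counts Chl1 and Reln were 2.93-fold and 5.54-fold higher in Sst-positive cells. Flrt2 and Ptprm, an adhesion and guidance protein gene and a receptor tyrosine phosphatase gene, had log2 differences of 5.23 and 4.59. Col19a1, a collagen gene, was counted in 20 of 29 Sst-positive cells at up to 581 CPM, and all Sst-negative cells together held 4 counts of it, with a log2 difference of 4.84.

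**Figure D3:**
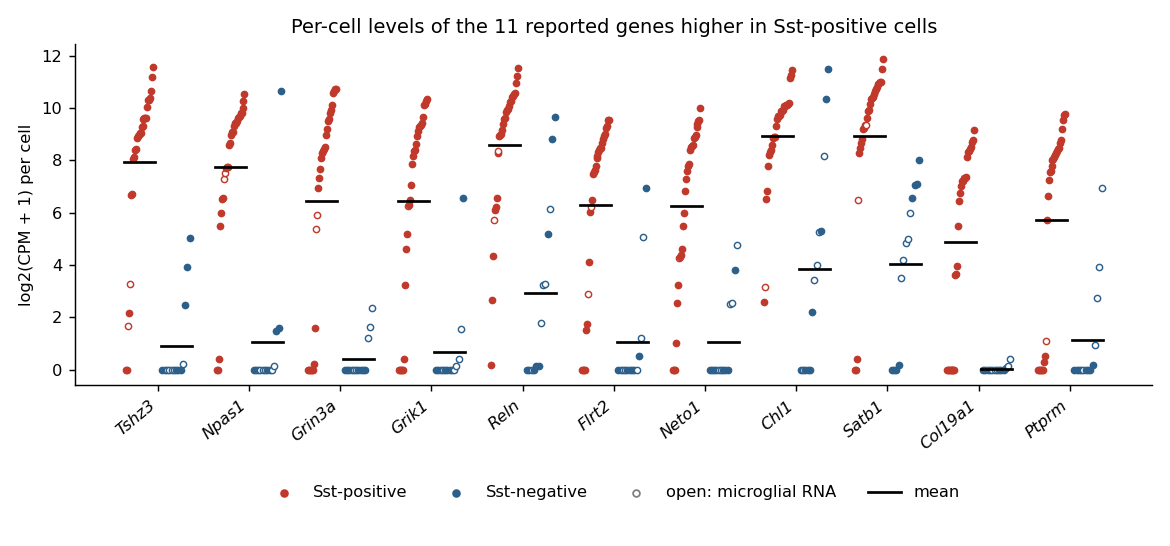
log2(CPM + 1) in every cell (vertical axis) for the 11 reported genes higher in Sst-positive cells, red Sst-positive left and blue Sst-negative right for each gene; open points are cells with microglial RNA and bars are means over 29 and 13 cells. Most Sst-negative cells lie at 0 for Tshz3, Npas1, Grin3a and Grik1. Above the Sst-positive median lie 1 Sst-negative cell for Npas1, 1 for Reln and 2 for Chl1.

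The direction of these 11 genes was set in part by the rule, which took the largest differences with 1 sign in the Htr3a line. Their log2 differences ran within MGE-derived 1 from 3.74 to 6.68 and within MGE-derived 2 from 3.0 to 8.40. In the Lhx6 line, with 12 Sst-positive and 2 Sst-negative cells, Reln stood at 0.51 and the other 10 at 2.02 to 8.37. Without the cells with microglial RNA they ran from 4.98 to 6.90, and with matching on the number of genes in addition from 4.14 to 8.54. With a pseudocount of 10 CPM they ran from 2.72 to 4.72, and by summed counts from 1.55 to 8.03. Among the 29 Sst-positive cells their levels were only weakly related to the level of Sst: Spearman's rho over these cells, which share the division by each cell's total, ran from -0.15 to 0.38 and was above 0 for 7 of 11.

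The 12 genes named as lower in Sst-positive cells had smaller log2 differences, of -4.05 to -3.30. Grn, which encodes progranulin and is strong in microglia, was lowest at -4.05. It had 0 to 1787 CPM in Sst-positive cells (median 0.0856) and 0 to 1652 CPM in Sst-negative cells (median 152), and the highest Sst-positive cell lay above all Sst-negative cells. Leaving out those with microglial RNA, Grn stood at -3.18, Trex1, a DNA exonuclease gene, at -1.41 and Stt3a at -2.37, and the other 9 at -4.36 to -2.72. Cnn3, which encodes the actin-binding protein calponin 3, was counted in 18 of 29 Sst-positive cells (42.3 to 79.3%) and 13 of 13 Sst-negative cells (75.3 to 100%). Its level was 0 to 1088 CPM in Sst-positive cells (median 51.7) and 0.227 to 1225 CPM in Sst-negative cells (median 374), a log2 difference of -3.76 and of -3.82 without the cells with microglial RNA.

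Deaf1, a transcription factor gene, was likewise counted in 19 of 29 Sst-positive and 13 of 13 Sst-negative cells (-3.35). Vipas39 and Trappc2l of vesicle trafficking, Srp68 of the signal recognition particle and Sdcbp, which encodes the scaffold protein syntenin, stood at -3.62, -3.38, -3.70 and -3.73. Stt3a, the catalytic subunit gene of an oligosaccharyltransferase, stood at -3.43, and Riok3, a kinase gene, at -3.73. Dcaf10 and Maea, which encode parts of ubiquitin ligases, stood at -3.33 and -3.31. Only Srp68, Trappc2l and Dcaf10 of the 12 exceeded their larger SD. For all 12 the ranges of the groups overlapped. In the Lhx6 line alone Stt3a turned to 2.41 and Trex1 was at 0 in both groups. The other 10 kept their direction there, but Sdcbp stood at only -0.08.

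**Figure D4:**
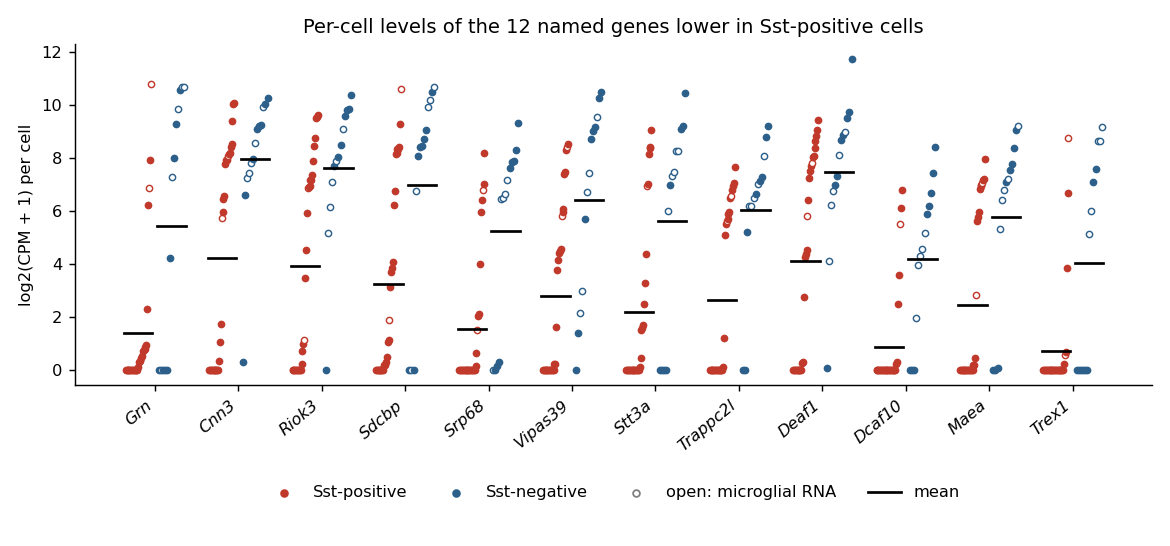
log2(CPM + 1) in every cell (vertical axis) for the 12 named genes lower in Sst-positive cells, red Sst-positive left and blue Sst-negative right for each gene; open points are cells with microglial RNA and bars are means. Both groups hold cells at 0 and at high levels for every gene except Cnn3 and Deaf1, which had a count in all 13 Sst-negative cells.

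The list counts below stand against the shares over all genes. Over all 42 cells 9.33% of all genes were higher and 16.6% lower. Without the cells with microglial RNA 29.3% were higher and 7.45% lower, and with matching in addition 21.3% and 17.9%. Of the lists, the MGE markers had the highest median over all 42 cells. Of 15 members, 10 were higher and 2 lower, with a median of 1.95, and without the cells with microglial RNA 9 of 14 were higher and 1 lower, with a median of 2.35. With matching on the number of genes in addition the median was 1.19, below those of the presynaptic (1.53) and glutamate receptor genes (1.23), among others. By summed counts it was 0.81, below those of several lists, the highest of which were the astrocyte markers (2.31) and the Sst subtype genes (1.87). Besides Npas1 and Satb1 came Nxph1, which encodes a secreted ligand of neurexins, at 4.26. Sox6, a transcription factor gene that acts after Lhx6, was counted in 24 of 29 Sst-positive and 7 of 13 Sst-negative cells and stood at 2.46. The 2 lower were Lhx8 (-2.71) and Nkx2-1 (-1.13, and 0.008 without the cells with microglial RNA). Nxph1 was counted in 26 of 29 Sst-positive cells (median 664 CPM) and 7 of 13 Sst-negative cells (median 10.4 CPM), but 2 Sst-negative cells exceeded all Sst-positive cells, up to 3071 CPM. Lhx6 itself had 27.7 to 5066 CPM in Sst-positive cells (median 969) and 9.36 to 1616 CPM in Sst-negative cells (median 243). Its log2 difference was 1.95, but 0.84 without the cells with microglial RNA and -0.04 when these were left out and cells were matched on the number of genes.

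Interneuron transcription factor genes were split, with 7 of 18 higher, 4 lower and a median of 0.36. Without the cells with microglial RNA 8 were higher and 3 lower (median 0.77), and with matching in addition 4 were higher and 6 lower (median -0.37). Bcl11a, a zinc finger factor gene, stood at 2.51. Zfhx3 and Meis2, both homeobox genes, were lower, at -2.52 and -2.42, as were Sp9 (-1.48) and Pbx3 (-1.0, and -0.95 without the cells with microglial RNA). Zfhx3 reached 22.3 CPM at most in 4 Sst-positive cells and 289 CPM in 6 Sst-negative cells.

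Known subtype genes of Sst interneurons were mixed at this age: 7 of 21 were higher and 2 lower, with a median of 0.06, and without the cells with microglial RNA 7 of 13 were higher and 1 lower, with a median of 1.15. Next to Grin3a and Reln, Npy, the neuropeptide Y gene, was counted in 20 of 29 Sst-positive cells (median 66.1, highest 29070 CPM) and 6 of 13 Sst-negative cells (median 0, highest 747 CPM), a log2 difference of 2.23. It was -0.39 within MGE-derived 1 and 4.77 within MGE-derived 2. Elfn1, a synaptic adhesion protein gene known for Sst interneurons, was counted in 14 of 29 Sst-positive cells and 1 of 13 Sst-negative cells, at 1.94. Cort, which encodes the somatostatin-related peptide cortistatin, was counted in 14 of 29 Sst-positive and 2 of 13 Sst-negative cells, at 1.93. The 2 lower were the calcium-binding protein genes Calb1 (-1.92) and Calb2 (-1.12, and -0.85 without the cells with microglial RNA).

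Of the parvalbumin interneuron genes none of 9 passed a difference of 1 over all 42 cells (median -0.37). Without the cells with microglial RNA 2 of 11 were higher, Ank1, an ankyrin gene, at 1.34 and the potassium channel gene Kcnc1 at 1.04, and 0 lower (median -0.04). There 29.3% of all genes were higher, with a median of 0.41 over all genes. With matching in addition 2 were higher and 4 lower. Mef2c, a transcription factor gene linked in mouse to precursors of parvalbumin interneurons, had 0.298 to 2079 CPM in Sst-positive cells (median 535) and 0 to 3580 CPM in Sst-negative cells (median 341). Its log2 difference was 0.67 (0.52 without the cells with microglial RNA, and -1.07 with matching in addition), although 3 Sst-negative cells lay above every Sst-positive cell and the summed level was lower in Sst-positive cells, at 710 CPM against 1021 CPM in Sst-negative cells.

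Markers of the caudal ganglionic eminence went both ways, with 4 of 12 higher and 4 lower (median -0.44), and 4 of 11 and 3 without the cells with microglial RNA (median -0.59). Those higher included Npas1, Reln and Cnr1, the cannabinoid receptor gene, which was counted in 28 of 29 Sst-positive cells (median 471 CPM) and 7 of 13 Sst-negative cells (median 2.27 CPM), at 4.40. Id2, an inhibitor of helix-loop-helix factors, was lower at -2.46 and was above every Sst-positive cell in 5 Sst-negative cells. Htr3a itself was counted in 6 of 29 Sst-positive and 4 of 13 Sst-negative cells (highest 242 and 930 CPM), a log2 difference of -1.31.

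The peptide pathway was examined next. Of 16 genes for neuropeptide processing and dense core vesicles, 8 were higher and 4 lower, with a median of 1.02, and without the cells with microglial RNA 9 were higher and 3 lower, with a median of 1.10. The higher ones included Pam, the enzyme that amidates peptides, at 2.34, Pcsk1n, a convertase inhibitor precursor, at 2.23 and Scg5, a chaperone of a convertase, at 2.16. By summed counts Scg5 had 381 CPM in Sst-positive and 312 CPM in Sst-negative cells. Without the cells with microglial RNA its summed level was lower in Sst-positive cells, at 383 CPM against 433 CPM. Pcsk1n was counted in all 29 Sst-positive cells (median 214 CPM) and in 12 of 13 Sst-negative cells (median 48.5 CPM). Scg2, whose promoter holds the cAMP response element, was counted in 9 of 29 Sst-positive and 7 of 13 Sst-negative cells and stood at -1.44. Of the other 2 genes whose promoters are printed, Chgb was counted in 17 of 29 Sst-positive and 9 of 13 Sst-negative cells and stood at -0.20, and Pcsk1 was counted in 1 Sst-positive cell and no Sst-negative cell. Qpct, the enzyme that forms pyroglutamate ends, was lower at -2.47. Within MGE-derived 2 alone the median of this list was -0.01.

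Other peptide genes were rare: 4 of 11 met the filter, of which 0 were higher and 2 lower, and without the cells with microglial RNA 1 of 5 was higher and 0 lower. Pnoc, the prepronociceptin gene, was counted in 2 of 29 Sst-positive and 7 of 13 Sst-negative cells and stood at -1.59, and at -0.51 without those cells. Somatostatin receptor genes were sparse in both groups, and 3 of 5 met the filter with none past 1 in size. Sstr1 was counted in 7 of 29 Sst-positive cells at up to 144 CPM and in 2 of 13 Sst-negative cells at 0.113 CPM at most, and its log2 difference of 0.97 was 1.02 without the cells with microglial RNA. Sstr2 was counted in 3 of 29 Sst-positive cells at 0.350 CPM at most and in 4 of 13 Sst-negative cells at up to 132 CPM.

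Of 22 cAMP and CREB pathway genes 6 were higher and 2 lower, with a median of 0.12, where 9.33% of all genes were higher. Without the cells with microglial RNA 10 were higher and 0 lower, with a median of 0.78, where 29.3% of all genes were higher and their median was 0.41. With matching in addition 7 of 21 were higher and 3 lower, where 21.3% of all genes were higher. Adcy1, an adenylyl cyclase gene, was counted in 23 of 29 Sst-positive cells (median 221 CPM) and 10 of 13 Sst-negative cells (median 7.23 CPM), at 2.70, and 15 Sst-positive cells exceeded all Sst-negative cells. Another cyclase gene, Adcy8, stood at 2.10, and Atf4, a transcription factor gene of this family, at 2.07. Atf4 was counted in 29 of 29 Sst-positive and 9 of 13 Sst-negative cells, but its median was lower in Sst-positive cells, at 239.8 CPM against 294 CPM in Sst-negative cells, and within MGE-derived 2 it stood at 0.19. In the Lhx6 line alone Adcy1 turned to -3.25. Genes with the cAMP response element in the 250 bases before their start were near the background, with 37 of 322 higher (11.5%) and 61 lower (18.9%), and without the cells with microglial RNA 97 of 293 higher (33.1%) and 29 lower (9.9%). Of the 11 reported genes higher, 8 had a promoter in the table, and 0 of these held the element.

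Genes of synaptic transmission were more often higher than lower. Among 23 presynaptic release genes 14 were higher and 1 lower, with a median of 1.40 (15 and 3 without the cells with microglial RNA, median 1.45), against 9.33% of all genes higher over all 42 cells and 29.3% without those cells. Syt4, Syt1 and Syt11, genes of the synaptotagmin family of vesicle proteins, stood at 3.35, 3.13 and 2.99. Syt1 was counted in all 29 Sst-positive cells (median 456 CPM) and in 9 of 13 Sst-negative cells (median 60.7 CPM). Cplx1, the complexin gene, stood at 2.84 but had a lower summed level in Sst-positive cells, at 140 CPM against 171 CPM in Sst-negative cells, where MGE-derived 1 cell 10 held 1101 CPM. The lower gene was Stx1a, a syntaxin gene, at -1.72. In the Lhx6 line alone the median of this list was -0.22. By summed counts 6 of 23 were higher and 1 lower (median 0.325), where 3814 of all 14903 genes were higher (median 0.026).

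Of 19 glutamate receptor genes 10 were higher and 1 lower, with a median of 1.14, and 11 and 1 with a median of 1.14 without the cells with microglial RNA. Grik3 and Gria3, a kainate and an AMPA receptor subunit gene, followed Grin3a and Grik1 at 2.43 and 2.37. By summed counts Grik3 had 100.3 CPM in Sst-positive and 87.03 CPM in Sst-negative cells. The lower gene was Grik4, another kainate receptor subunit gene, at -1.42. Voltage-gated channel genes were higher in 7 of 30 and lower in 0 (median 0.53). Without the cells with microglial RNA 10 of 30 were higher and 0 lower (median 0.71), near the 29.3% of all genes higher there. The list was led by the potassium channel gene Kcnc2 at 2.71 and the sodium channel subunit gene Scn3b at 2.34. Kcnd3, another potassium channel gene, stood at 1.90. Of 8 genes for GABA synthesis, transport and chloride 2 were higher and 0 lower, among them the chloride extruder gene Slc12a5 at 1.69, and 3 of 7 and 0 without the cells with microglial RNA. Gad1 had a median of 557 CPM in Sst-positive and 334 CPM in Sst-negative cells and stood at 0.87, but at 0.14 without the cells with microglial RNA and at -0.94 in the Lhx6 line alone.

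The neurexin genes encode presynaptic adhesion receptors and were the subject of the study, and over all 42 cells Nrxn2 and Nrxn3 did not differ beyond 1. Nrxn2 had medians of 17.04 and 7.85 CPM in Sst-positive and Sst-negative cells and a log2 difference of 0.03, which was -0.49 without the cells with microglial RNA. Matched on the number of genes Nrxn2 stood at 0.51, and at -0.98 with those cells left out as well. Nrxn3 was counted in 28 of 29 Sst-positive cells (median 272, highest 1119 CPM) and 11 of 13 Sst-negative cells (median 334, highest 2988 CPM), at 0.98, and at 0.95 without the cells with microglial RNA. Nrxn3 did pass 1 when cells were matched on the number of genes, at 1.54, and at 1.62 with those cells left out as well. In the Lhx6 line, with 2 Sst-negative cells, Nrxn2 stood at 1.94 and Nrxn3 at 4.50. Over all 42 cells the difference of both was below the SD between cells. The summed level of Nrxn3 was lower in Sst-positive cells, at 410 CPM against 444 CPM in Sst-negative cells.

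Of 24 neurexin ligands and partners 9 were higher and 2 lower (median 0.52), and 10 of 21 and 2 without the cells with microglial RNA (median 0.78). After Nxph1 came Adgrl2, a latrophilin receptor gene, at 3.53 and Lrrtm1, a postsynaptic ligand gene, at 3.05. Clstn2, a calsyntenin gene, was lower at -2.25 and was above every Sst-positive cell in 4 Sst-negative cells, and Nlgn1, a neuroligin gene, stood at -1.81, and at -0.75 without the cells with microglial RNA. Splicing regulators were split, with 5 of 23 higher and 4 lower (median -0.04), but 11 and 2 without the cells with microglial RNA (median 0.79), and 3 and 6 with matching in addition (median 0.06). Elavl2, a neuronal RNA-binding protein gene, was counted in 26 of 29 Sst-positive cells (median 299 CPM) and 9 of 13 Sst-negative cells (median 11.4 CPM), and its 3.31 exceeded the larger SD. Of the genes of STAR-family splicing regulators known to act on neurexin transcripts, Khdrbs3 stood at 2.38 and Khdrbs2 at -1.53.

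Migration and guidance genes were higher in 6 of 23 and lower in 4 (median 0.16). Leaving out the cells with microglial RNA, 7 were higher and 3 lower (median 0.25), near the 29.3% of all genes higher there and below their median of 0.41. Sema3a, a secreted semaphorin gene, stood at 4.58 and Plxna2, a plexin receptor gene, at 3.67, and both exceeded their larger SD. Sema3a was counted in 22 of 29 Sst-positive cells (highest 1913 CPM) and 4 of 13 Sst-negative cells (highest 75 CPM). Nrp2, a semaphorin receptor gene, stood at -2.12 (0.03 without the cells with microglial RNA) and was counted in 5 Sst-negative cells, none of them among the 8 without microglial RNA. Of 20 immediate early and stress genes 5 were higher and 2 lower (median -0.07), and 8 of 18 were higher and 0 lower without the cells with microglial RNA (median 0.81). Fos and Egr1 stood at 2.57 and 2.58, with highest levels of 4102 and 2911 CPM in Sst-positive cells and 112 and 90.5 CPM in Sst-negative cells, and Dusp1, which also responds to stimuli, at -1.83 (-0.99 without the cells with microglial RNA).

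Markers of other cell types moved in part with the cells of microglial RNA. All 12 microglia markers were lower in Sst-positive cells (median -2.27), and without those cells 0 of the 7 that met the filter differed (median 0.05). Progenitor and proliferation markers were lower in 6 of 13 (median -0.93), and lower in 1 and higher in 1 of 9 without those cells (median 0.27). Mki67 had no count in 29 Sst-positive cells and was counted in 4 of 13 Sst-negative cells at up to 151 CPM, and 0 of 8 without microglial RNA. Vim, an intermediate filament gene of progenitors, stood at -2.26, and at 0.49 without those cells. Glutamatergic markers were lower in 1 of 12 (Nfib, -2.72) and higher in 0, and without those cells 2 of 13 were higher and 1 lower. Neurod6 stood at 0.96, and at -0.22 without those cells. Of the astrocyte, endothelial and mural lists no member differed by 1 over all 42 cells. Without the cells with microglial RNA 1 of 4 astrocyte markers was higher, where 29.3% of all genes were higher. Of 7 oligodendrocyte markers 1 was lower (Mbp, -1.09, and -0.96 without those cells). Of 7 Cajal-Retzius markers Reln was higher and Calb2 lower, with 1 of 5 higher and 0 lower without those cells, and of 5 erythrocyte genes Hba-a2 was higher (1.27), a globin gene with a near-identical copy between which reads may be split.

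**Figure D5:**
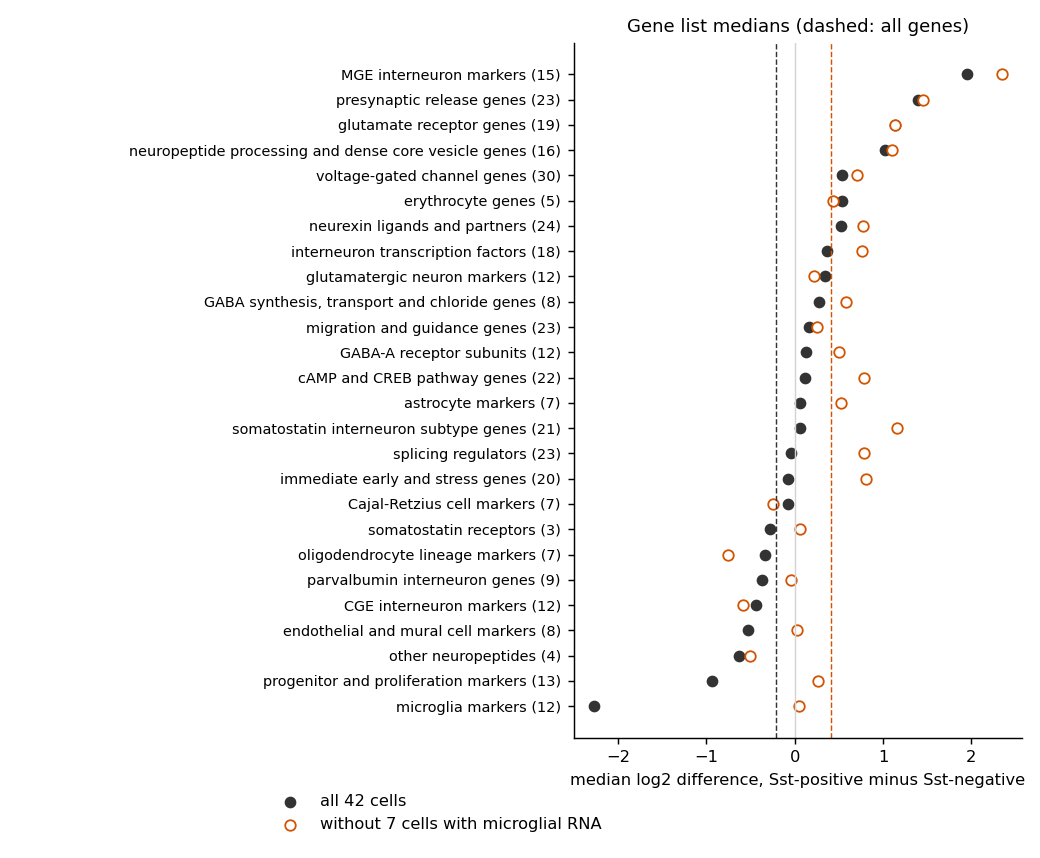
Median log2 difference, Sst-positive minus Sst-negative (horizontal axis), of each gene list except the neurexins, with the number of members counted over 42 cells in brackets. Filled points are for all 42 cells and open points without the 7 cells with microglial RNA. Dashed lines are the medians of all genes at -0.22 and 0.41. MGE interneuron markers lie highest at 1.95 and microglia markers lowest at -2.27, with microglia markers at 0.05 without the 7 cells.

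The 13 Sst-negative cells differed among themselves. Isl1, Chat and Zic4, which belong to no list, were chosen after their values were seen. Lhx8, a homeobox gene of the ventral forebrain, had no count in 29 Sst-positive cells (exact 95% interval 0 to 11.9%) and was counted in 5 Sst-negative cells. Its highest levels, 405 and 561 CPM, were in the only 2 Sst-negative cells of the Lhx6 line, MGE-derived 1 cells 3 and 6. Both cells also held Zic4, a zinc finger factor gene (182 and 172 CPM), and had no count of Satb1, Sox6 or Npas1. Cell 6 held in addition Isl1, a LIM homeobox gene, at 623 CPM and Chat, the choline acetyltransferase gene of cholinergic neurons, at 354 CPM. Chat had no count in any Sst-positive cell.

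Of the 5 Sst-negative cells with microglial RNA, the 4 other than MGE-derived 2 cell 23 held little Lhx6 (9.36 to 41.1 CPM) and some Nkx2-1, the homeobox gene of MGE progenitors (1.92 to 69.1 CPM). Zic4 (53.65 to 105.5 CPM) and Isl1 (14.3 to 137.6 CPM) were counted in all 4 as well, and Lhx8 in 3 of them (40.9 to 68.9 CPM). Cell 23 held 1616 CPM of Lhx6, the highest among Sst-negative cells, and 2286 CPM of Mef2c. Mef2c was also high in MGE-derived 1 cells 15 and 17 (1914 and 3580 CPM) and MGE-derived 2 cells 13 and 15 (2254 and 1647 CPM). MGE-derived 1 cell 8 held Npas1 (1617 CPM) together with Htr3a (930 CPM), Adarb2 (299 CPM) and Id2 (2213 CPM), of which Adarb2 encodes an RNA-editing family protein known for interneurons of the caudal eminence. It also held 260 CPM of Satb1, the highest level among Sst-negative cells. Htr3a (186 CPM), Adarb2 (22.6 CPM) and Id2 (738 CPM) were counted in MGE-derived 1 cell 15 as well, and Htr3a (215 CPM) in MGE-derived 1 cell 17. MGE-derived 1 cell 10 held 1254 CPM of Lhx6 with no count of Sox6.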

How the data were processed

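The authors deposited whole-number read counts per Ensembl gene and cell and a normalized signal table; Trimmomatic, STAR, featureCounts and build GRCm38 are named in the submitters' processing notes, and versions are not given in the sources used here. How the deposited normalized signal was scaled is not stated, and it served as an alternative only. The symbol-level count table was not used. Of 22880 rows, 22570 received a symbol from GENCODE M21, and summing equal symbols left 22879 genes; 310 had none.

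Groups came from the submitters' type, line and quality labels and the Sst count. The cells, gene lists and rules were chosen with earlier results of these data known. CPM are counts scaled by the total over all genes of a cell, and log2(CPM + 1) was averaged over cells. Shares carry exact Clopper-Pearson 95% intervals. These cover the counting of cells only, because the embryo or litter of a cell is not given. The amplified reads carry no molecular identifier. Doublets were not called; cells with at least 3 microglia markers at 10 counts were left out as an alternative. Genes counted had a count in 10% of either group's cells. A gene was named with a count in 50% of the higher group's cells, 20 CPM of summed counts there, a 2-fold difference by summed counts (also without the highest cell) and at least 1 in log2, and the same sign within the Htr3a line (in the Lhx6 line only with 3 cells in each group, which was not met); the 12 largest per direction were taken, with the neurexins, Lhx6, Htr3a, Neurod6 and at most 4 members of each of 27 lists, not all of which are printed, and any other gene was chosen after its values were seen. The comparison was tested on simulated data with known differences. There the values of each gene were shuffled among the cells, so the simulation does not cover differences between whole cells, such as microglial RNA or the number of genes. Python 3.11.15, numpy 2.4.6, pandas 2.3.3, scipy 1.17.1 and matplotlib 3.10.9 were used.

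Alternatives were other Sst thresholds, each line or label alone, other pseudocounts (10 and 0.1 CPM), filters, the deposited normalized signal, summed counts, thinning to 1710224 counts, matching on the number of genes and leaving out single cells or the cells with microglial RNA. Leaving those out together with matching or centring on the median, and centring alone, were added after seeing the data.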

Additional observations from a re-analysis of the deposited data

Results flagged for a closer look

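Among the 4 cells labelled GABAergic, cell 4 lay far from the others in Sst, with 52.5 CPM against 0 in the other 3.

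Sst was also high in cells that failed quality control and entered no comparison. It reached 3087 counts in the Undefined cell 3 of the Lhx6 line, 4350 counts in the MGE-derived 2 cell 1 of the Lhx6 line and 1587 counts in the Undefined cell 5 of the Htr3a line, each numbered among the failed cells of its label.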

How the results depend on the processing

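The number of genes higher in Sst-positive cells, 1390, was 2936 in the Lhx6 line alone, 2131 in MGE-derived 1 alone, 614 with a pseudocount of 10 CPM and 3814 by summed counts. It was 3580 without the cells with microglial RNA, 2659 with matching on the number of genes in addition and 2421 with centring on the median in addition. The number lower, 2476, was 4102 in the Lhx6 line, 4282 in MGE-derived 2, 554 and 4751 with pseudocounts of 10 and 0.1 CPM, 4513 in the deposited normalized table and 912 without the cells with microglial RNA. Leaving out single cells gave 1154 to 1770 higher and 1917 to 3007 lower. Centring alone gave 1923 higher and 1725 lower. The median of all genes was -0.22, and -0.50 in the deposited normalized table, 0.03 by summed counts and 0.41 without the cells with microglial RNA. Reversals are given only for values of at least 1 in size over all 42 cells. Reversed in the Lhx6 line, with 2 Sst-negative cells, were Stt3a (2.41), Adcy1 (-3.25), Id2 (2.38), Slc12a5 (-1.72), Scn3b (-0.82), Syt11 (-1.62), Nfib (1.24), Vim (0.68), Csf1r (0.27) and Hba-a2 (-0.82), and the medians of the presynaptic genes (-0.22) and microglia markers (0.066). Reversed within a label were Npy in MGE-derived 1 (-0.39) and, in MGE-derived 2, Htr3a (0.48) and the median of the dense core vesicle genes (-0.014), and by summed counts Cplx1 (-0.29) and Mbp (0.37). Calb2 was reversed with a threshold of 1 count of Sst (0.32). Reversed without the cells with microglial RNA were Vim (0.49), C1qb (0.001), Csf1r (0.43), Nrp2 (0.027), Nkx2-1 (0.008) and the median of microglia markers (0.049). With matching in addition Lhx6 (-0.036), Pnoc (0.16), C1qb (0.002), Nrp2 (0.076) and the microglia median (0.002) were reversed, and with centring in addition Vim (0.075) and Csf1r (0.021). The cause was not tested. No paired analysis was possible because the result comes from no test and each group counts as 1 sample. With 2 Sst-negative cells the Lhx6 line limits any statement within it, and 13 Sst-negative cells, 8 without microglial RNA, limit the rest.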
